A study of Homo sapiens with 9 samples.

Results

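The 10 genes described here encode the core of human polyamine metabolism: 4 synthesis enzymes (ODC1, AMD1, SRM and SMS), 3 regulators of ornithine decarboxylase (OAZ1, OAZ2 and AZIN1) and 3 enzymes of polyamine breakdown (SAT1, SMOX and PAOX). They were chosen by name, and all 10 were found among the 17637 genes of the count table and passed the filter on low counts. Messenger RNA was measured in KOPTK1, an established human leukaemia line of the T-cell acute lymphoblastic type, in 9 libraries that fall into 3 groups of 3. The shControl libraries come from cells whose columns are named for a hairpin against GFP, the shDHX15 libraries from cells with a lentiviral short hairpin RNA against DHX15, a DEAH-box RNA helicase, and the shDHX15_MYC libraries from cells with that hairpin and an ectopic MYC coding region. The study asked whether MYC acts downstream of DHX15. All groups are given as wild-type, the column names carry the same hairpin number for both DHX15 groups, and no group holds added MYC without the hairpin. With the same hairpin number in both DHX15 groups, other effects of that hairpin and loss of DHX15 cannot be told apart. Without a group of MYC alone, neither can an effect of MYC by itself and one that depends on the knockdown.

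Polyamines (putrescine, spermidine and spermine) are small positively charged molecules that bind RNA and are needed for growth and translation. Ornithine decarboxylase, the product of ODC1, makes putrescine, and AMD1 makes the decarboxylated S-adenosylmethionine from which spermidine synthase (SRM) and spermine synthase (SMS) take the aminopropyl groups they add. Antizymes bind ornithine decarboxylase and send it to the proteasome, and AZIN1, an inactive relative of the enzyme, binds antizyme in its place. SAT1 acetylates spermidine and spermine, PAOX oxidises the acetylated forms, and SMOX oxidises spermine directly. ODC1 is a classical target of MYC, which binds the sequence CACGTG, the E-box.

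The upstream sequence of SRM is shown because SRM changed most in both directions, and that of AMD1 because AMD1 also rose with MYC; CACGTG is in capitals. The SRM stretch of 244 bases lies at chr1:11060025-11060268 (minus strand) and the AMD1 stretch of 235 bases at chr6:110874535-110874769 (plus strand; GRCh38.p14). Each lies before a RefSeq start and ends 1 base before the first exon of the gene in GENCODE v29. A RefSeq start of AMD1 farther upstream, with its window at chr6:110814367-110814666, is not shown.
SRM: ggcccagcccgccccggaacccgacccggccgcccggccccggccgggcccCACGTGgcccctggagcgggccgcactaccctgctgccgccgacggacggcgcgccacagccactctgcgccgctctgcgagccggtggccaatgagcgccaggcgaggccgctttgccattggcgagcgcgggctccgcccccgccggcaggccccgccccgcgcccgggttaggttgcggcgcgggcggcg
AMD1: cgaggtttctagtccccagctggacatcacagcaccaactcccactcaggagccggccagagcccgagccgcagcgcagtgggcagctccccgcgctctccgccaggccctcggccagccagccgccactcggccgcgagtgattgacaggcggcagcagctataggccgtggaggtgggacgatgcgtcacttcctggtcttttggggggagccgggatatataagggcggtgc
The SRM motif begins 199 bases before the RefSeq start. ODC1 has CACGTG 2 times near its downstream RefSeq start, beginning 29 bases before it and at base 6 after it, both inside the gene and in no exon of GENCODE v29. These 2 sites are shown with 30 bases each, at chr2:10448024-10448053 and chr2:10447990-10448019 (minus strand).
ODC1 upstream site: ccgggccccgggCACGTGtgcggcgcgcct
ODC1 downstream site: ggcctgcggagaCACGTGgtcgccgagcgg
In windows of 300 bases around RefSeq starts (250 before, 50 after), 2 of the 7 genes that matched, SRM and ODC1, held CACGTG, which reads the same on both strands. Of all 27167 symbols with such windows 8.74% had it in at least 1, and of all 34943 windows 7.23% held it. The windows of AMD1, SMS, OAZ1, OAZ2 and SAT1 did not hold these letters.

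OAZ1 and OAZ2 carry in their coding sequence the stop codon that ribosomes pass by shifting frame when polyamines are abundant. The 30 bases around this site are shown because it is the element through which polyamines act on these messages; the capitals mark TCCTGA, found by searching GENCODE v29 transcripts for TGCTCCTGA. They lie at chr19:2271428-2271457 (plus strand) in 7 of 11 OAZ1 transcripts and at chr15:64691501-64691530 (minus strand) in 5 of 9 OAZ2 transcripts (GRCh38), and 29 of 30 bases are the same. The searched letters are among these 29 by construction.
OAZ1: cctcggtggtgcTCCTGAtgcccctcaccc
OAZ2: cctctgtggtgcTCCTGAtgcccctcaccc

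Total counts per library ran from 42134302 to 59688062. Levels are CPM, counts divided by the TMM-scaled size of their library, given with the standard deviation (SD) of 3 libraries, and changes are log2 fold changes with a standard error (SE) from an edgeR model over 15309 genes; called means an adjusted p under 0.05. DHX15 was at 284.3, 278.3 and 278.4 CPM in shControl, 182.1, 162.0 and 155.5 in shDHX15 and 196.8, 196.4 and 192.2 in shDHX15_MYC. MYC was at 108.7 to 110.0, 84.3 to 91.3 and 6922 to 7197 CPM, so the MYC group lies far above shControl. DHX15 was itself called higher in shDHX15_MYC than in shDHX15 (0.23, SE 0.0442, edgeR adjusted p = 1.24e-04). That comparison thus differs in DHX15 message as well as in MYC, and the part of this in the changes below was not tested. Replicate 1 of shDHX15 stood apart (chi-square per degree of freedom 17.6 and 16.6 against the other 2, which gave 4.39 between them), and calls named below that turn on it are given without it. The T-lineage markers fixed for the check of the cell type each reached 1 CPM in at least 1 library (15 of 15). Their summed level was 3493 to 3599 CPM in shControl, 2811 to 2941 in shDHX15 and 1629 to 1664 in shDHX15_MYC. Single markers went much lower: over the 9 libraries PTCRA ran from 0.0828 to 2.75 CPM, RAG1 from 0.633 to 4.3 and DNTT from 1.41 to 100.7. Of other lineages, the B-cell marker CD79A was at 99.9 ± 2.42 CPM with MYC, above 40.2 ± 0.544 in shControl and 37.4 ± 1.09 in the knockdown, while PAX5 reached at most 0.497 and CD22 at most 0.0427 CPM. Myeloid markers summed to 0.623 to 1.31 CPM without and 7.16 to 8.76 with MYC. Mitochondrial genes took 3.67% to 3.99% of counts without and 6.59% to 6.66% with MYC. The part of these shifts in the changes below was not tested, and in bulk RNA fewer cells of a type and less RNA per cell cannot be told apart. Nothing in the labels tells whether the replicates were cultured apart, and the p-values then measure the spread of these 9 libraries alone, which may be technical.

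Per kilobase of exon, OAZ1 was by far the most abundant of the 10 messages and the oxidases SMOX and PAOX the least. In shControl OAZ1 stood at 551 ± 8.12 CPM per kilobase (SD, n = 3), followed by AZIN1 at 73.0 ± 0.264, ODC1 at 65.2 ± 1.3, SMS at 51.5 ± 1.09, SAT1 at 43.9 ± 1.68 and OAZ2 at 37.6 ± 1.77. AMD1 at 32.8 ± 0.387 and SRM at 32.0 ± 1.39 did not differ beyond their spread. SMOX stood at 4.61 ± 0.207 and PAOX at 0.479 ± 0.0703 CPM per kilobase. The order of means was the same in shDHX15, but SRM, at 8.70 ± 0.709, was no longer level with AMD1, at 28.2 ± 2.84. In shDHX15_MYC the order changed: ODC1 was next after OAZ1 at 100.9 ± 0.577 and SRM next at 56.7 ± 2.39, above AZIN1 at 47.3 ± 0.463 and AMD1 at 40.7 ± 0.689, while SMS, at 28.9 ± 0.740, lay beside SAT1, at 29.5 ± 0.374, within their spread.

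**Figure D1:**
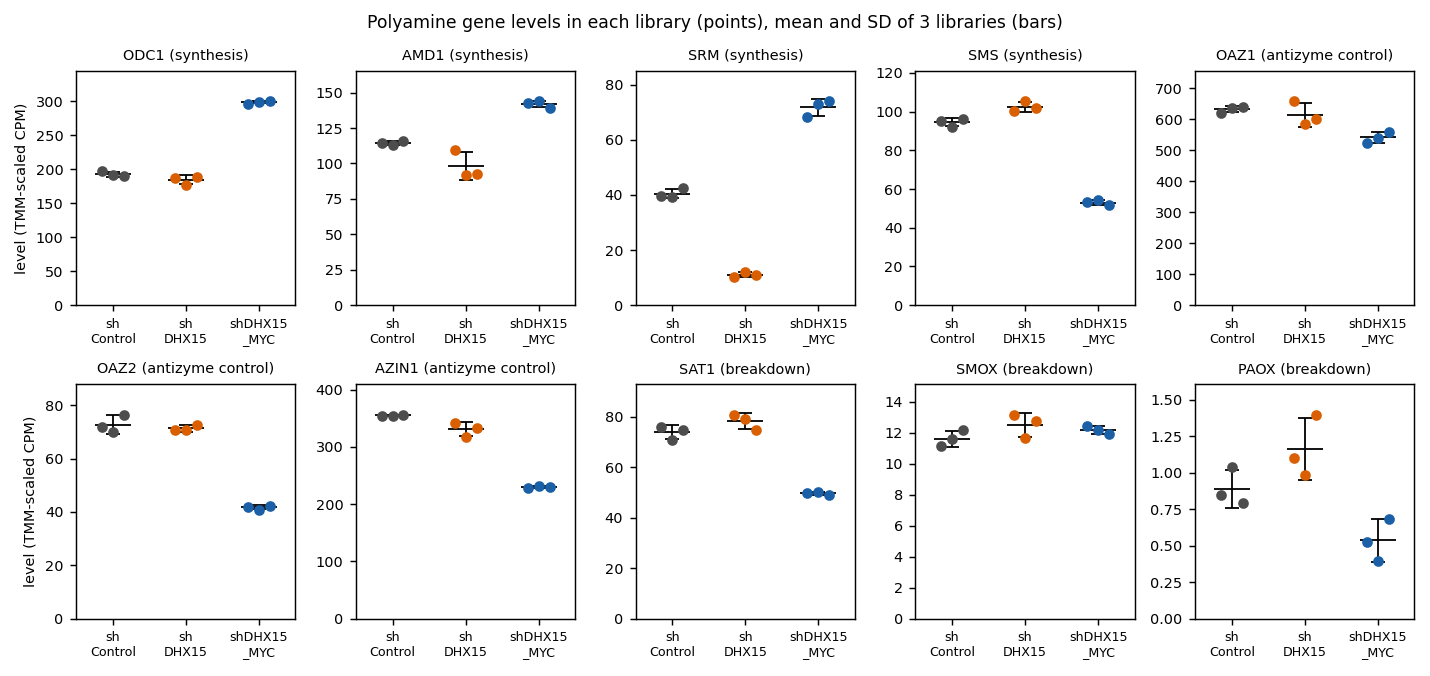
Level of each gene in TMM-scaled CPM (vertical axis, from 0) in the 3 libraries of shControl, shDHX15 and shDHX15_MYC; points are libraries, bars the mean and SD. SRM drops to between 10.2 and 11.9 CPM in shDHX15 and lies between 68.3 and 74.0 with MYC, while SMS, OAZ2, AZIN1 and SAT1 lie lowest with MYC.

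With the DHX15 hairpin, spermidine synthase fell sharply, and the other genes called moved little. SRM fell 3.67-fold, AMD1 1.16-fold and AZIN1 1.07-fold, SMS rose 1.08-fold, and the other 6 genes were not called. These 4 called genes of 10 stand beside 45.0% of all genes tested (22.0% higher, 23.0% lower), and 5 of 10 had groups that did not overlap, beside 51.1%. Both shares are near the background, and SRM stands apart from the other 9 by the size of its change. PAOX, on few counts, had a 95% interval of -0.22 to 0.98, so its change is poorly measured. The median log2 fold change of all 10 genes, SRM included, was -0.04, against -0.0047 for all genes. Without replicate 2 of shDHX15 only SRM and AMD1 were called, and without replicate 1 of shDHX15, 6 genes were.

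SRM, the spermidine synthase gene (chromosome 1, 11054584 to 11060024, minus strand), was at 39.7, 39.3 and 42.5 CPM in shControl and at 10.2, 11.9 and 10.9 in shDHX15. The groups lay far apart. The log2 fold change was -1.88 (SE 0.0629, 95% interval -2.01 to -1.74, adjusted p = 1.15e-12), the lowest of the 10328 genes whose log2 CPM averaged 3 or more, called the better-measured genes below. In log2 units it was larger than the fall of DHX15 itself (-0.75, SE 0.0441) and that of MYC (-0.33, SE 0.031). It ranged from -1.95 to -1.82 when any library of the 2 groups was left out. No window of 100 bases from SRM transcripts (0 of 72) was found at another annotated locus.

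AMD1, the S-adenosylmethionine decarboxylase gene (chromosome 6, 110874770 to 110895713, plus strand), was at 114.3, 112.9 and 115.6 CPM in shControl and 109.6, 92.1 and 92.8 in shDHX15. The groups did not overlap, but replicate 1 of shDHX15 lay close to shControl. The change was -0.22 (SE 0.0515, adjusted p = 0.00214), and -0.31 without that library. SMS, which turns spermidine into spermine (chromosome X, 21940573 to 21994835, plus strand), was at 95.4, 92.3 and 96.1 CPM in shControl and slightly higher at 100.4, 105.4 and 101.9 in shDHX15 (0.12, SE 0.0369, adjusted p = 0.0155). That call was lost without replicate 2 of shControl or replicate 2 of shDHX15 (adjusted p = 0.0757 and 0.0774).

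ODC1, the gene of the enzyme that opens the pathway (chromosome 2, 10439968 to 10448504, minus strand), was at 197.3, 191.4 and 189.9 CPM in shControl and 187.5, 177.2 and 189.0 in shDHX15. The groups lay side by side without overlap. The difference was -0.06 (95% interval -0.13 to 0.0047, adjusted p = 0.123), so that a fall larger than 0.13 on the log2 scale lies outside the interval. Without replicate 1 of shDHX15 it was called (-0.08, adjusted p = 0.0236), and with libraries scaled by total counts it was 0.0029.

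Among the regulators, AZIN1, the antizyme inhibitor (chromosome 8, 102826357 to 102893864, minus strand), went from 354.2, 354.6 and 356.6 CPM to 341.9, 318.0 and 333.5, below shControl in each library (-0.10, SE 0.0308, adjusted p = 0.0129). This small fall was lost with total-count scaling (-0.03, adjusted p = 0.379), with only the 2 groups in the fit (adjusted p = 0.071) and without replicate 2 of shDHX15 (adjusted p = 0.0552). OAZ1, the main antizyme (chromosome 19, 2269509 to 2273490, plus strand), was at 622.1, 635.3 and 640.1 CPM in shControl and 658.7, 584.7 and 601.0 in shDHX15, so that the groups overlapped (-0.04, 95% interval -0.12 to 0.04, adjusted p = 0.416). Replicate 1 of shDHX15 is the high value; without it the difference was -0.09 (adjusted p = 0.0011). OAZ2, a less abundant antizyme (chromosome 15, 64687573 to 64703281, minus strand), was at 72.0, 69.8 and 76.5 CPM in shControl and 70.6, 70.7 and 72.7 in shDHX15 (-0.03, 95% interval -0.12 to 0.06, adjusted p = 0.599).

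None of the 3 breakdown genes was called in the knockdown. SAT1, the inducible acetyltransferase (chromosome X, 23783173 to 23786226, plus strand), was at 76.1, 70.7 and 74.8 CPM in shControl and 80.9, 79.2 and 74.9 in shDHX15 (0.09, 95% interval -0.0040 to 0.17, adjusted p = 0.113). It passed without replicate 3 of shDHX15 (adjusted p = 0.0481) and with total-count scaling (0.15, adjusted p = 0.0072). SMOX, spermine oxidase (chromosome 20, 4120980 to 4187747, plus strand), was at 11.1, 11.6 and 12.2 CPM and 13.2, 11.7 and 12.7 (0.11, 95% interval -0.06 to 0.27, adjusted p = 0.282). PAOX, the peroxisomal oxidase of acetylated polyamines (chromosome 10, 133379234 to 133391694, plus strand), rested on only 37 to 66 counts per library here and was at 0.845, 1.04 and 0.789 CPM in shControl and 1.10, 0.986 and 1.40 in shDHX15 (0.38, 95% interval -0.22 to 0.98, adjusted p = 0.297). The interval of PAOX is the widest of the 10 genes.

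With MYC added to the knockdown, the synthesis enzymes ODC1, AMD1 and SRM rose. SMS, OAZ2, AZIN1, SAT1 and PAOX fell, as did OAZ1 under some scalings. In this comparison 9 of 10 genes were called, 3 higher and 6 lower, beside 84.7% of all genes (42.1% higher and 42.6% lower), and 9 had groups that did not overlap, beside 85.0%. Against shControl 9 of 10 were called, 3 higher and 6 lower, beside 84.5% (42.0% and 42.5%), and 9 did not overlap, beside 87.2%. These shares are close to those of all genes. These comparisons share libraries with the knockdown comparison and with each other and are given side by side. The median log2 fold change of the 10 genes was -0.35 against shDHX15 and -0.40 against shControl, with 0.0058 and 0.02 for all genes tested. The 10328 better-measured genes had medians of -0.20 and -0.20 under this scaling and -0.0023 and 0.07 under total counts, so that changes of about 0.2 in these comparisons depend on how libraries are scaled.

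**Figure D2:**
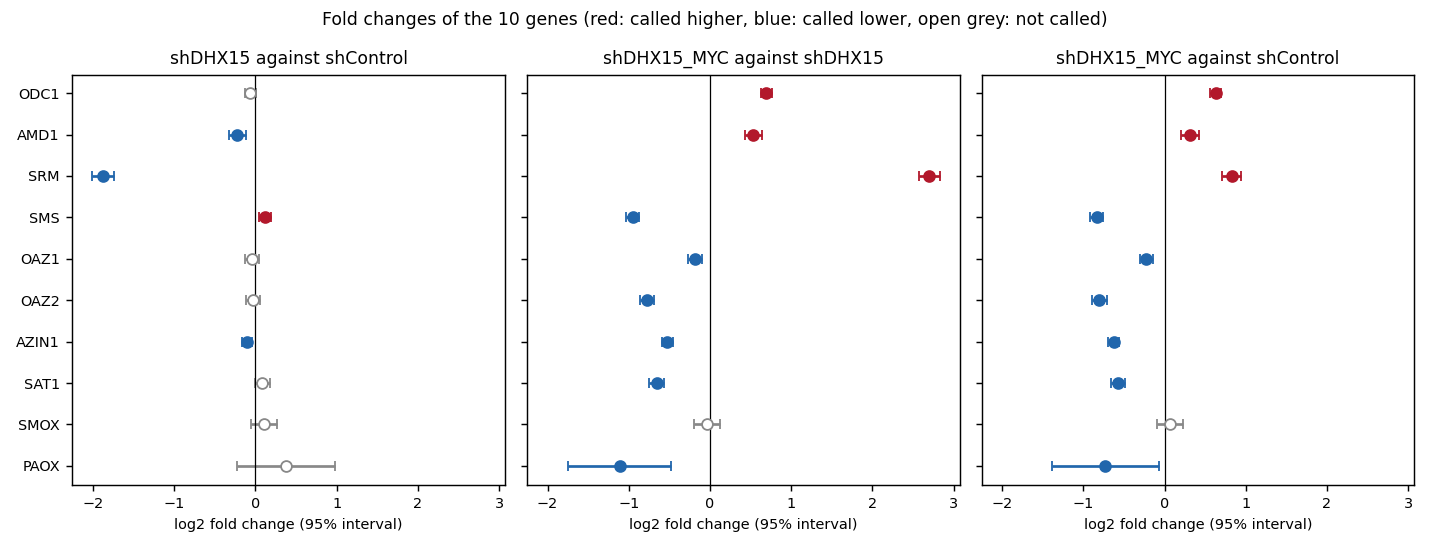
Log2 fold change of each gene (horizontal axis, same range in each panel) with its 95% interval in the 3 comparisons; red points were called higher, blue lower, open grey not called. SRM stands out to the left at -1.88 in the knockdown and to the right at 2.70 with MYC added, while SMS changes from 0.12 to -0.95.

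SRM rose from 10.2, 11.9 and 10.9 CPM to 68.3, 73.0 and 74.0 in shDHX15_MYC, 6.50-fold (log2 fold change 2.70, SE 0.062, adjusted p = 8.70e-17). This placed it 74th from the top among 10328 genes. It thereby passed the shControl level of 39.3 to 42.5 CPM by 0.82 (SE 0.0554, adjusted p = 2.04e-10), in all 3 libraries. ODC1 rose to 296.9, 298.9 and 300.3 CPM, 1.62-fold above shDHX15 (0.69, SE 0.0321, adjusted p = 1.03e-12) and 1.55-fold above shControl (0.63, SE 0.0322, adjusted p = 4.17e-12). Its 3 libraries with MYC lay close together and above each of the other 6. AMD1 rose to 142.8, 143.9 and 139.3 CPM, by 0.53 over shDHX15 (SE 0.0511, adjusted p = 2.70e-08) and by 0.31 over shControl (SE 0.051, adjusted p = 2.09e-05).

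SMS went against the other 3 synthesis enzymes. It fell to 53.6, 54.1 and 51.5 CPM, 1.93-fold below shDHX15 (-0.95, SE 0.0379, adjusted p = 1.30e-13) and 1.78-fold below shControl (-0.83, SE 0.0381, adjusted p = 8.97e-13). No library with MYC came near the 92.3 CPM of the lowest shControl library. Of 82 windows of SMS transcripts 8 (9.76%) were also found at another locus, AL354714.2, so reads of these stretches could have been counted differently; the part of this in the fall was not tested. For the other 9 genes 0 windows were shared.

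Of the 3 regulators, OAZ2 and AZIN1 fell with MYC under each scaling, and OAZ1 only under some. OAZ2 was at 42.0, 40.8 and 42.2 CPM, 1.71-fold below shDHX15 (-0.78, SE 0.0431, adjusted p = 1.38e-11) and 1.75-fold below shControl (-0.80, adjusted p = 8.92e-12). AZIN1 was at 227.7, 232.2 and 230.1 CPM, 1.44-fold below shDHX15 (-0.53, SE 0.031, adjusted p = 3.11e-11) and 1.54-fold below shControl (-0.63, adjusted p = 2.77e-12). Both groups of 3 were well separated for these genes. OAZ1 was at 524.3, 540.2 and 560.3 CPM and was called lower than shDHX15 (-0.18, SE 0.0387, adjusted p = 3.13e-04) and shControl (-0.22, SE 0.0388, adjusted p = 4.13e-05). With total counts its changes were 0.016 and 0.041, with upper-quartile factors -0.0043 and -0.057, and with TMM factors from the better-measured genes they were 0.0076 and -0.019, none of them called. Of the OAZ1 exons 225 bases also belong to JSRP1 on the opposite strand, and of the AZIN1 exons 344 bases to AZIN1-AS1; whether counting used strand is not given in the sources used here.

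Of the breakdown genes, SAT1 and PAOX fell with MYC and SMOX was not called. SAT1 was at 49.6, 50.3 and 49.0 CPM, 1.58-fold below shDHX15 (-0.66, SE 0.0429, adjusted p = 1.28e-10) and 1.49-fold below shControl (-0.57, adjusted p = 1.00e-09). Its highest library with MYC lay well under the 70.7 CPM of the lowest shControl library. SMOX stayed at 12.4, 12.2 and 11.9 CPM (-0.04 against shDHX15, 95% interval -0.20 to 0.12, adjusted p = 0.634). Against shControl the SMOX difference was 0.07 (adjusted p = 0.428), but 0.33, 0.23 and 0.27 with total counts, upper-quartile factors and TMM factors from the better-measured genes, where it was called (adjusted p = 7.72e-04, 0.00989 and 0.00365). PAOX, on 25, 19 and 32 counts, was at 0.528, 0.393 and 0.685 CPM, 2.16-fold below shDHX15 (-1.11, SE 0.301, adjusted p = 0.00241). Against shControl it was -0.73 (SE 0.311, adjusted p = 0.0373), a call lost with each of 3 other scalings (adjusted p = 0.10 to 0.168), in DESeq2 (0.0605), with the replicate block (0.0515) and without replicate 1 or 2 of either group (0.0526 to 0.143). PAOX shares 117 exon bases with the overlapping AL360181.3.

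**Figure D3:**
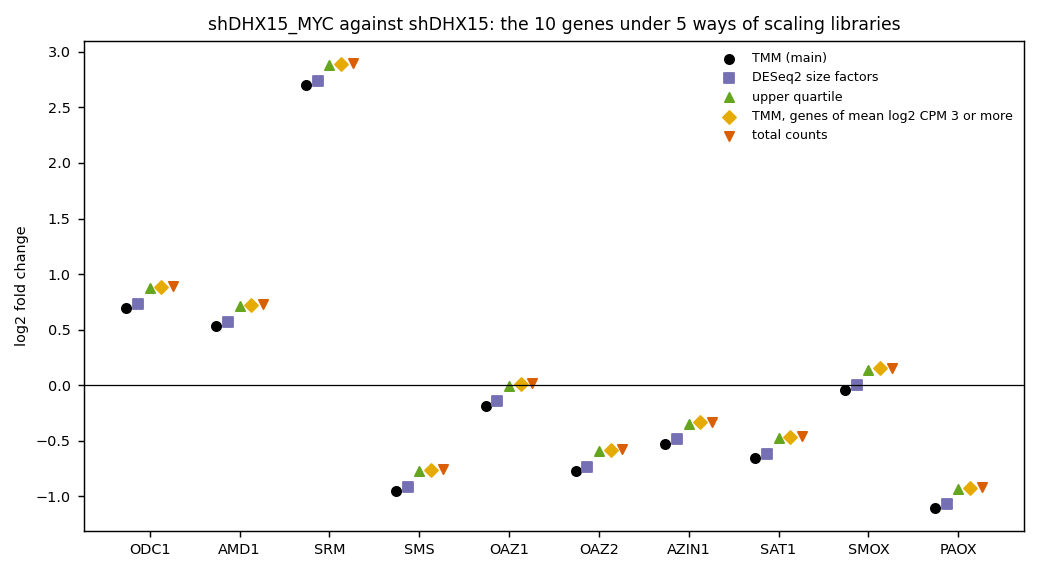
Log2 fold change of shDHX15_MYC against shDHX15 (vertical axis) for each gene under 5 ways of scaling libraries. All genes shift by a common amount: ODC1, AMD1 and SRM stay above 0 and SMS, OAZ2, AZIN1, SAT1 and PAOX below 0, while OAZ1 and SMOX change sign.

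The ratio of 2 counts within a library does not depend on scaling between libraries, and 4 such ratios were compared. With 3 libraries against 3, the exact permutation test (two-sided) cannot give a p below 0.10, so no ratio could pass 0.05, before or after adjustment over the 12 comparisons. The count ratio of SRM to SMS was 0.416, 0.426 and 0.443 in shControl, 0.101, 0.113 and 0.107 in shDHX15 and 1.28, 1.35 and 1.44 in shDHX15_MYC. In shControl and shDHX15 libraries SRM had fewer counts than SMS, and with MYC it had more. On the log2 scale the ratio changed by -2.0 in the knockdown and by 3.66 with MYC added, with SDs between 0.0446 and 0.0856 within groups (exact permutation p = 0.1 for both).

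The ratio of ODC1 to OAZ1 counts, the decarboxylase against its inhibitor, was 0.317, 0.301 and 0.297 in shControl, 0.285, 0.303 and 0.315 in shDHX15 and 0.566, 0.553 and 0.536 in shDHX15_MYC. Control and knockdown overlapped (log2 difference -0.02, exact permutation p = 0.8), and the MYC libraries lay 1.84-fold above the knockdown (0.88, exact permutation p = 0.1). For AZIN1 to OAZ1, 2 regulators with opposite effects on the decarboxylase, the ratio was 0.569, 0.558 and 0.557, then 0.519, 0.544 and 0.555, then 0.434, 0.430 and 0.411, lowest with MYC (log2 difference -0.34 against shDHX15, exact permutation p = 0.1). Each MYC library had fewer AZIN1 counts per OAZ1 count than any of the other 6.

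The ratio of SAT1 to ODC1, breakdown against synthesis, was 0.386, 0.369 and 0.394 in shControl, 0.431, 0.447 and 0.396 in shDHX15 and 0.167, 0.168 and 0.163 in shDHX15_MYC. The MYC libraries lay 2.55-fold below the knockdown and 2.30-fold below shControl (log2 differences -1.35 and -1.20, exact permutation p = 0.1 for both). The knockdown lay slightly above shControl without overlap (0.15, exact permutation p = 0.1).

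**Figure D4:**
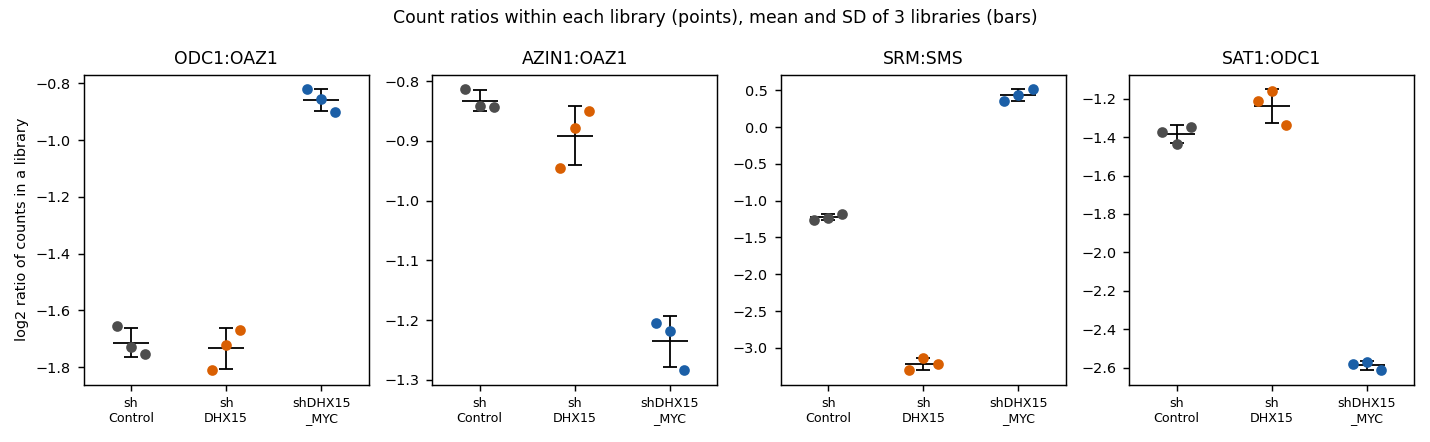
Log2 ratio of the counts of 2 genes in the same library (vertical axis, a separate range in each panel) for the 3 groups; points are libraries, bars the mean and SD. The SRM:SMS ratio falls by 2.0 in shDHX15 and lies 3.66 higher with MYC, and SAT1:ODC1 is lowest with MYC.

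Beyond these 10 genes, 28 others of the pathway were taken from a list covering methionine recycling, ornithine and arginine, hypusine, transport and paralogs. All 28 passed the filter, AGMAT only with the MYC libraries in the fit (27 were tested with shControl and shDHX15 alone). AGMAT is counted below among the genes called higher with MYC, against shDHX15 and against shControl. Its rise is no support for those counts. In the knockdown 12 were called, 4 higher and 8 lower (45.0% of all genes were called), and with total counts 8 higher and 4 lower. Without replicate 1 of shDHX15, 15 were called, 6 higher and 9 lower. With MYC added, 22 were called against shDHX15, 9 higher and 13 lower, beside 84.7% of all genes, and 22 against shControl, 9 higher and 13 lower, beside 84.5%. With total counts the latter was 14 higher and 11 lower. The medians were -0.07, -0.25 and -0.04.

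Enzymes that recycle methionine and the methylthioadenosine left over from polyamine synthesis numbered 9. With MYC 7 of them were lower and 1 higher than in shDHX15, beside 42.6% and 42.1% of all genes. In that comparison the better-measured genes had a median of -0.20 under this scaling and -0.0023 under total counts. The split of these 9 was not counted under other scalings. In the knockdown 3 were higher and 3 lower, beside 22.0% and 23.0%. The difference from all genes was not tested. MTR, methionine synthase, fell from 140.1 ± 5.55 CPM in shDHX15 to 67.5 ± 1.24 (-1.05, SE 0.0369, adjusted p = 2.24e-14). MAT2B, a subunit of the enzyme that makes S-adenosylmethionine, fell from 101.3 ± 2.66 CPM in shControl to 50.9 ± 0.882 with MYC (-0.99, adjusted p = 1.95e-13). In the knockdown ENOPH1, an enzyme of methionine salvage, rose from 35.8 ± 0.634 to 67.2 ± 5.01 CPM (0.91, SE 0.0514, adjusted p = 7.21e-10). ADI1, a dioxygenase of the same salvage route, fell from 40.1 ± 0.194 to 28.6 ± 2.17 CPM (-0.49, adjusted p = 6.55e-06) and was at 41.0 ± 2.89 with MYC. AHCY, which removes S-adenosylhomocysteine, fell from 217.4 ± 3.70 to 166.4 ± 8.33 CPM (-0.39, adjusted p = 2.27e-07) and was at 160.0 ± 2.41 with MYC. Its change against shDHX15 was not called (-0.06, adjusted p = 0.157), but was -0.10 without replicate 1 of shDHX15 (adjusted p = 7.90e-04) and 0.14, 0.12 and 0.13 with total counts, upper-quartile factors and TMM factors from the better-measured genes.

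Spermidine is the donor for hypusine, a modified lysine of the translation factor eIF5A. EIF5A itself fell from 263.0 ± 2.98 CPM in shControl to 227.3 ± 5.72 in shDHX15 (-0.21, adjusted p = 5.36e-05) and rose to 485.9 ± 17.6 with MYC (1.10, SE 0.0326, adjusted p = 2.45e-15). DHPS, the enzyme that transfers the aminobutyl group of spermidine to eIF5A, fell instead, from 114.2 ± 2.81 to 58.0 ± 1.34 CPM (-0.98, SE 0.0356, adjusted p = 3.71e-14). Of EIF5A windows 11.5% were found at other loci, EIF5AL1 among them, and 1254 of 1546 exon bases of DHPS overlap other annotated genes, so both values are less certain than those of SRM.

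Of the 6 genes listed under ornithine and arginine, 4 were called higher, AGMAT among them, and 1 lower with MYC against shDHX15. The shares over all genes were 42.1% and 42.6%. The lower gene was AZIN2, a paralog of AZIN1, which fell from 27.6 ± 1.01 to 9.59 ± 0.188 CPM (-1.53, SE 0.0635, adjusted p = 2.40e-13). AZIN2 was not called in the knockdown (-0.03, adjusted p = 0.702). ATP13A3, a P5B-type ATPase that carries polyamines into cells, rose in the knockdown from 144.5 ± 3.28 to 185.2 ± 8.68 CPM (0.36, SE 0.0376, adjusted p = 8.91e-07) and was at 147.0 ± 4.24 with MYC (-0.33 against shDHX15, adjusted p = 2.33e-07).

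**Figure D5:**
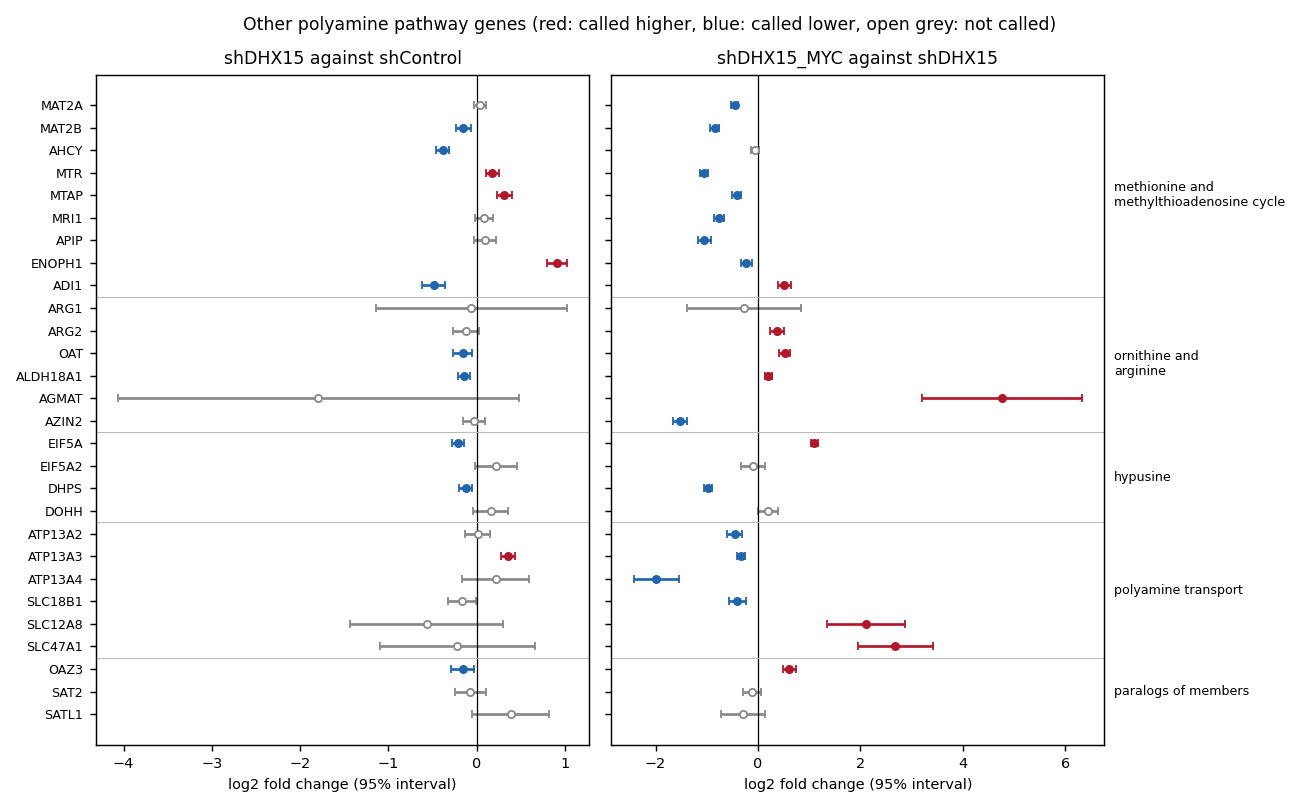
Log2 fold change with 95% interval (horizontal axis, a separate range in each panel) of the 28 other pathway genes in the knockdown and with MYC added, grouped by role; red called higher, blue called lower, open grey not called. ENOPH1 lies farthest right among called genes in the knockdown at 0.91, and EIF5A at 1.10 and DHPS at -0.98 lie on opposite sides with MYC.

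Genes with the most similar pair of changes (knockdown, then MYC added) were found by Euclidean distance in log2 units over 9808 genes and 9 libraries. For ODC1 the nearest were ZBTB7A, SAR1A and NFKB1 (0.00065, 0.0057 and 0.011), for AMD1 IFI6, METTL2B and ATN1 (0.011, 0.015 and 0.018) and for SMS CARD19, FOPNL and TMEM87B (0.0063, 0.0100 and 0.013). These distances lie under the SEs of the changes of ODC1, AMD1 and SMS themselves (0.0321 to 0.0515). Which genes rank nearest to these 3 is therefore uncertain. SRM had no near neighbour: the nearest, FKBP10, CD276 and CRABP2, lay 0.70, 0.81 and 0.85 away. They fell by 1.18, 1.21 and 1.22 in the knockdown and changed by 2.82, 2.24 and 3.24 with MYC added.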

How the data were processed

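The authors deposited raw read counts per gene symbol, whole numbers with no scaling, for 9 poly(A) libraries read from both ends for 150 bp, per the labels' protocols. FastQC 0.11.9, HISAT2 2.2.1, DESeq2 1.32.0 and hg38 are named per the submitters' processing notes; how reads were counted (program, strand, annotation) is not given in the sources used here. Columns were joined to samples by name, the GFP hairpin taken as shControl and the numbered hairpin as DHX15. From these counts, genes were kept with filterByExpr (15309 of 17637), scaled by TMM and fitted with edgeR 4.0.16 (quasi-likelihood, 1 mean per group, all 9 libraries, R 4.3.3); p-values were two-sided and adjusted by Benjamini and Hochberg over all genes tested. Exon lengths and shared 100-base windows (every 50 bases) come from GENCODE v29 (GRCh38). The model was tested on simulated data. DESeq2 1.42.0, other scalings, no filter, 2 groups only, the replicate block and leaving out each library were tried. Named are the 10 genes, DHX15, MYC, up to 4 called genes per comparison from the wider list, and the 3 nearest genes of each synthesis enzyme. Members and lists were chosen with earlier results of these data known.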

Additional observations from a re-analysis of the deposited data

How the results depend on the processing

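Of 420 refits of the 30 fold changes of the 10 genes, 386 kept direction and side of the threshold. A further 17 kept direction but lost the call, and 7 kept direction and gained it. The other 10 changed sign, and some of these, such as OAZ1 with MYC under total counts, also lost the call. With total counts the knockdown change was 0.0029 for ODC1, 0.025 for OAZ1, 0.037 for OAZ2, 0.036 for AZIN2 and 0.0021 for ZBTB7A, and OAZ1 was at 0.016 against shDHX15 and 0.041 against shControl with MYC. Against shDHX15, SMOX was at 0.16, 0.14 and 0.15 and AHCY at 0.14, 0.12 and 0.13 with total counts, upper-quartile factors and TMM factors from the better-measured genes, an alternative added after the data had been seen, which gave 0.0076 for OAZ1. A common shift of all genes by scaling accounts for these by construction. Leaving out 1 library at a time, the count of called genes of the 10 ranged from 2 to 6 in the knockdown, and the log2 ODC1:OAZ1 difference from -0.0536 to 0.0181; the change of OAZ2 ranged from -0.0578 to 0.0086, of ZBTB7A from -0.163 to 0.0592 and of SLC47A1 from -0.867 to 0.0802 in the knockdown, and of ADI1 with MYC against shControl from -0.0253 to 0.0768. The called split of the 10 genes under total counts was 2 higher and 2 lower in the knockdown and 4 and 4 with MYC against shControl. With the replicate block 4, 9 and 8 of the 10 genes were called in the 3 comparisons, with the loss of PAOX given above; deviations of same-numbered libraries correlated at -0.0952 to 0.0897 across genes, so the numbers were not taken to pair them. PAOX rested on few counts in each library.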

Other observations

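Some low or unusual messages of the pathway moved with MYC and are named here after their values were seen. Against shDHX15, 84.7% of all genes tested were called. Low messages of the same list that were not called there include ARG1 (-0.27, edgeR adjusted p = 0.63) and SATL1 (-0.29, adjusted p = 0.186). OAZ3, an antizyme gene known from male germ cells, was at 21.0, 19.4 and 19.5 CPM in shControl, 18.5, 17.4 and 17.7 in shDHX15 and 27.1, 27.6 and 27.2 with MYC, a rise of 0.61 over shDHX15 (SE 0.0588, edgeR adjusted p = 2.79e-08), where OAZ2 fell. Of its 4323 exon bases 1342 also belong to other annotated genes, MRPL9 and TDRKH on the opposite strand among them, and whether its reads come from OAZ3 was not tested. The letters TGCTCCTGA were also found in 3 of 11 OAZ3 transcripts, at chr1:151767209-151767238 (GRCh38, plus strand), where 14 of 30 bases are those of OAZ1. The searched letters are among these 14 by construction, and likeness outside them was not tested.
OAZ3: tgcctccagtgcTCCTGAgtccctagtagg

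SLC47A1, an exporter of organic cations, had 18, 16 and 22 counts in shControl, 12, 12 and 30 in shDHX15 and 91, 111 and 127 with MYC (2.69 over shDHX15, SE 0.346, edgeR adjusted p = 1.25e-06). SLC12A8 had 17, 16 and 30, then 11, 15 and 22, then 62, 84 and 50 counts (2.11, SE 0.362, adjusted p = 3.45e-05). ATP13A4, a relative of ATP13A3, went the other way, from 147, 169 and 117 counts in shDHX15 to 29, 30 and 42 (-1.99, SE 0.208, adjusted p = 8.32e-08). AGMAT, named for the hydrolysis of agmatine to putrescine, had 0, 6 and 7 counts in shControl, 2, 2 and 0 in shDHX15 and 31, 46 and 34 with MYC.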
